A study of Homo sapiens with 16 samples.

Results

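The peroxisome proliferator-activated receptors (PPARs) PPARA, PPARD and PPARG, their coactivator PPARGC1A, and 4 genes of fatty acid handling that these receptors control, CPT1A, ANGPTL4, PLIN2 and ACADVL, were followed in pancreatic progenitor cells treated with latrunculin B. These 8 genes, of 35810 genes summed from the transcript tables, were listed because they share PPAR and fasting control with PDK4, the kinase that switches off pyruvate dehydrogenase, which is shown beside them. ANGPTL4 and PLIN2 rose at 3 h and 6 h of latrunculin B and stood above their control at 24 h, PPARGC1A rose at 3 h and 6 h and was below its control at 24 h, and CPT1A rose at 24 h. Among the receptors PPARD fell at 6 h. The differences of PPARA and PPARG from control, some of them larger in size than those of PPARGC1A, had wider errors than PPARGC1A. They were not called in the main edgeR fit. Some alternative fits called them, among them 9 of 18 for PPARA at 6 h and 7 of 18 for PPARG at 3 h.

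Cells of the human embryonic stem cell line SA121, carrying a green fluorescent reporter at NGN3 (NGN3-GFP) and representing a single reporter line, were differentiated to day 19 pancreatic progenitors. Latrunculin B (LatB), a drug that binds actin monomers and takes actin filaments apart, was given at 0.5 µM for 3 h (n = 3), 6 h (n = 3), 12 h (n = 2) or 24 h (n = 3). The controls were taken at 0 h (n = 3) and after 24 h of the vehicle DMSO (n = 2); the labels tag the 0 h libraries as DMSO too, while the design text places their harvest before treatment. There was no vehicle control at 3, 6 or 12 h, so at those times the drug cannot be told apart from vehicle, handling and elapsed time. All 6 groups share the line, the reporter and the differentiation day, and polyadenylated RNA of whole cultures was sequenced.

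PPARs are nuclear receptors that are activated by fatty acids and bind DNA as heterodimers with retinoid X receptors (RXRs), at direct repeats of a half-site spaced by 1 base (DR1). In fasting liver and muscle they turn on genes that take up, store and burn fat. Among these are the carnitine shuttle, the acyl-CoA dehydrogenases, lipid droplet coats and PDK4. PDK4 spares glucose by inhibiting pyruvate dehydrogenase, the enzyme that turns pyruvate into acetyl-CoA. PPARG is best known as the driver of fat cell formation, PPARA as the fasting receptor of liver, and PPARD as the broadly expressed form.

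The libraries held 23609727 to 33515398 estimated reads. Of 11 pancreatic progenitor markers, 10 reached 1 TPM (a transcript level scaled for length and to the same total in every library) in at least 1 library of every group, PDX1 lay between 110 and 173 TPM, and PTF1A stayed under 1 TPM. Among 7 adipocyte markers only LIPE reached 1 TPM, and ADIPOQ, LEP, PLIN1, CIDEC, CIDEA and RETN lay between 0 and 0.389 TPM. The summed endocrine markers lay at 58.6 to 73.0 TPM in control 0 h, 134 to 233 TPM at LatB 3 h, 137 to 494 TPM at LatB 24 h and 99.6 to 118 TPM in control 24 h. Of these 9 markers SST (38.8 to 312 TPM over all libraries) and CHGA (16.6 to 66.1 TPM) had the highest medians, and NEUROG3 had a median of 2.35 TPM. In at least 1 library, 4 of the 9 reached 1 TPM in control 0 h, 4 at LatB 3 h, 9 at LatB 24 h and 6 in control 24 h. The summed pluripotency markers lay at 173 to 193 TPM in the controls and 85.4 to 128 TPM in the treated libraries, most of it LIN28A (82.9 to 190 TPM over all libraries), and the summed muscle markers at 13.5 to 18.2 and 0.853 to 13.1 TPM. The part of these markers in the results below was not tested. The LatB 12 h libraries stood apart from each other: their log2 CPM (counts scaled to library size) correlated at 0.9674, against 0.9802 to 0.9864 within the other groups. In replicates 1 and 2 at 12 h the summed hepatocyte markers were 1342 and 3635 TPM and the summed mesenchyme markers 78.7 and 428 TPM, against 1091 to 1756 and 60.3 to 131 TPM in all other libraries. In such bulk RNA, fewer cells of a type and less RNA per cell cannot be told apart.

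The stretches of 250 bases before the RefSeq start sites of ANGPTL4, PLIN2 and PDK4 (GRCh38.p14) are shown because these genes rose together at 3 h and 6 h. Each is printed along its gene's strand, at chr19:8363905-8364154 (plus strand) for ANGPTL4, chr9:19127493-19127742 (minus strand) for PLIN2 and chr7:95596517-95596766 (minus strand) for PDK4. Capitals mark ACGTG on either strand, a form of the core of the element that hypoxia-inducible factors bind. Other forms of that core are not marked, and the letters do not single out these factors.
ANGPTL4: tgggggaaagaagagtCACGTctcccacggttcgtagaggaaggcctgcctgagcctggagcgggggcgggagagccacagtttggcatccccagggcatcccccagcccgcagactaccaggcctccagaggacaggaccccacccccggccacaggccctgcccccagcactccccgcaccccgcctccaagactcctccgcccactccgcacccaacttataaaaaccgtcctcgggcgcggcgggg
PLIN2: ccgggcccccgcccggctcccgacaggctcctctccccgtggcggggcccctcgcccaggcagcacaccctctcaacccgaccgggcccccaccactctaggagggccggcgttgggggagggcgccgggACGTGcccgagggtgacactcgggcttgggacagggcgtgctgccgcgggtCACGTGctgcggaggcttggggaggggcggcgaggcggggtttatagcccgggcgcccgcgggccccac
PDK4: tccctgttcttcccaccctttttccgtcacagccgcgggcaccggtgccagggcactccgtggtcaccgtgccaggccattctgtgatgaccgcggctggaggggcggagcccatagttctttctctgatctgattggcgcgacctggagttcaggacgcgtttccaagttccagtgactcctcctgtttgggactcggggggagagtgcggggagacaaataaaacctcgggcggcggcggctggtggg
ACGTG matched once in ANGPTL4, 3 times in PLIN2, where the palindrome counts on both strands, and 0 times in PDK4. Over all 35116 RefSeq windows of 300 bases (250 before and 50 after the start), 21.4% held ACGTG, 13.8% the receptor half-site AGGTCA and 3.42% the forkhead motif TGTTTAC, each on either strand. Neither AGGTCA nor TGTTTAC occurred in the stretches shown.

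A wider search used DR1 with a free base in each repeat and a free spacer, AGGNCANAGGNCA, on either strand within 5000 bases of the canonical start site. It matched near 2 of the 8 genes, PPARGC1A and CPT1A, and not near PDK4, while 8.14% of 19970 such windows of protein-coding genes held a match. The stricter AGGTCANAGGTCA matched in 0.706% of windows and near none of the 8. Both matches are printed along the plus strand of GRCh38 with 8 flanking bases and the match in capitals, at chr4:23891919-23891947 for PPARGC1A, 1892 bases before its start, and at chr11:68846659-68846687 for CPT1A, 4763 bases before its start.
PPARGC1A: taaaattcAGGACAAAGGTCAttggctct
CPT1A: ggtgcagcAGGCCACAGGGCAcagagctg
A match is a resemblance of letters in a window and says nothing of binding in these cells, and the absence of one near the other genes says nothing of the receptors.

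ANGPTL4, a secreted inhibitor of lipoprotein lipase (gene at chr19:8363289-8374370), showed low and tight control levels. It measured 3.33, 3.34 and 3.46 TPM in the control 0 h libraries and 2.35 and 2.26 TPM in control 24 h. Libraries given latrunculin B measured 13.2, 15.8 and 21.6 TPM at 3 h, 10, 9.98 and 9.18 TPM at 6 h, 6.44 and 3.91 TPM at 12 h and 3.50, 4.57 and 5.27 TPM at 24 h. Every treated library lay above every control library in TPM, and the order of the groups was control 24 h, control 0 h, LatB 24 h, LatB 12 h, LatB 6 h and LatB 3 h, with overlap between neighbours only for LatB 24 h and 12 h. In CPM 1 of the 3 LatB 24 h libraries fell inside the range of the controls. On the count scale the log2 fold change against control 0 h was 2.51 ± 0.23 (SE) at 3 h (adjusted p = 4.34e-06, edgeR) and 1.68 ± 0.23 at 6 h (adjusted p = 7.21e-05). At 24 h it was 0.98 ± 0.27 against control 24 h (adjusted p = 0.0122). That last difference rests on a control below the one at 0 h: against control 0 h the 24 h libraries differed by 0.38 (adjusted p = 0.218), and without replicate 1 or replicate 2 of control 24 h the adjusted p was 0.0672 or 0.0743. ANGPTL4 counts in the controls were small, 91 to 127 estimated reads per library.

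PLIN2, the coat protein of lipid droplets outside fat cells (chr9:19108375-19149290), was the most strongly raised of the 8 at 6 h. Its level was 26.5, 19.1 and 22.7 TPM in control 0 h and 21.3 and 17.5 TPM in control 24 h. With latrunculin B it reached 85.8, 109 and 169 TPM at 3 h, 86.2, 101 and 131 TPM at 6 h, 62.9 and 21.6 TPM at 12 h and 41.0, 76.5 and 61.1 TPM at 24 h. The 3 h, 6 h and 24 h libraries all lay above all 5 control libraries, whereas replicate 2 at 12 h lay among the controls. The log2 fold change was 2.52 ± 0.38 at 3 h (adjusted p = 0.00023), 2.27 ± 0.38 at 6 h (adjusted p = 0.00033) and 1.57 ± 0.43 at 24 h against control 24 h (adjusted p = 0.011), the last with adjusted p of 0.0632 and 0.0756 without replicate 1 and replicate 2 of control 24 h. The 3 h and 6 h groups overlapped, and their difference of -0.25 ± 0.35 was not called (adjusted p = 0.671).

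PDK4, the gene whose control these genes share, went from 17.5, 15.6 and 16.8 TPM in control 0 h to 192, 178 and 246 TPM at LatB 3 h and 156, 192 and 186 TPM at 6 h. It stood at 83.2 and 28.7 TPM at 12 h and at 34.1, 49.8 and 47.9 TPM at 24 h, against 12.4 and 11.9 TPM in control 24 h. All 11 treated libraries were above all 5 controls. Its log2 fold changes were 3.62 ± 0.34, 3.49 ± 0.33, 1.75 ± 0.34 and 1.84 ± 0.37 at 3, 6, 12 and 24 h (adjusted p between 3.65e-06 and 0.00162), larger in size than those of any of the 8 genes at each time. PDK4 shares 13018 bases with the antisense gene PDK4-AS1, and use of strand in the counting is not stated. In the plot of levels relative to control 0 h, the 12 h replicate 2 dropped towards the controls for ANGPTL4, PLIN2 and PDK4 alike.

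**Figure D1:**
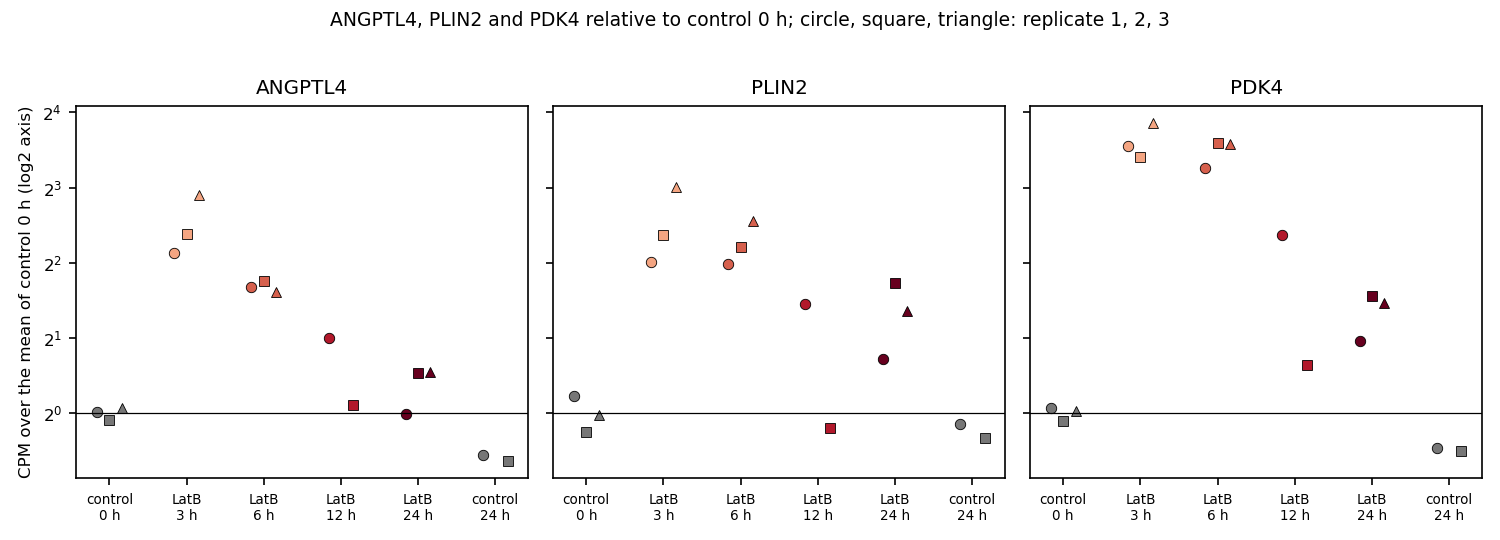
CPM of ANGPTL4, PLIN2 and PDK4 in each library divided by the mean of control 0 h, on a log2 axis, by group, with 1 symbol per replicate number. All 3 genes are highest at LatB 3 h and 6 h, and at 12 h replicate 1 (circle) lies above replicate 2 (square) for each.

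PPARGC1A, the coactivator that raises mitochondrial and fasting genes together with PPARs (chr4:23755041-23904089), rose and then fell. Its levels were 11.3, 14.4 and 14.3 TPM in control 0 h and 12.8 and 15.0 TPM in control 24 h. They moved to 19.0, 17.0 and 17.6 TPM at LatB 3 h and 22.7, 22.4 and 20.6 TPM at 6 h, then to 17.3 and 13.8 TPM at 12 h and 11.5, 8.07 and 11.1 TPM at 24 h. The 6 h libraries were the highest of all 16, with no overlap with those of 3 h, and in CPM the 24 h libraries lay below all 5 controls. The log2 fold change was 0.43 ± 0.14 at 3 h (adjusted p = 0.0282), 0.71 ± 0.14 at 6 h (adjusted p = 0.000904) and -0.45 ± 0.15 at 24 h against control 24 h (adjusted p = 0.0315). The 3 h call was lost when any control 0 h library, LatB 3 h replicate 1 or LatB 3 h replicate 2 was left out or control 24 h was the reference (adjusted p up to 0.12 over all alternatives), and the 24 h call when either control 24 h library or LatB 24 h replicate 2 was, by limma-trend on log2(TPM + 1) and with the offset for transcript length (adjusted p up to 0.174). The fall from LatB 6 h to LatB 24 h, in which no control enters, was larger, at -1.12 ± 0.14 (adjusted p = 4.05e-05). By annotation PPARGC1A shares 13612 and 2971 bases with long noncoding RNA genes on the opposite strand.

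PPARD (chr6:35342558-35428191) varied least of the 8 genes over the 16 libraries, from 6.66 to 10.3 TPM. In control 0 h it measured 8.83, 9.04 and 9.91 TPM and in control 24 h 8.38 and 9.46 TPM. Under latrunculin B it was 8.10, 8.07 and 7.70 TPM at 3 h, 7.42, 6.66 and 6.89 TPM at 6 h, 7.74 and 10.3 TPM at 12 h and 9.35, 10.2 and 9.38 TPM at 24 h. The 6 h libraries were the lowest, without overlap with any other group. PPARD fell by 0.28 on the log2 scale at 6 h (SE 0.07, adjusted p = 0.00638), the call held under all 18 alternatives, and it rose again between LatB 6 h and 24 h by 0.42 ± 0.07 (adjusted p = 0.000488). The difference at 24 h against control 24 h, 0.18 ± 0.08, did not pass the threshold (adjusted p = 0.0891).

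PPARG (chr3:12287368-12434356) was spread widely among replicates. Control 0 h gave 12.3, 7.68 and 15.3 TPM and control 24 h gave 12.5 and 8.11 TPM. The treated libraries gave 4.13, 9.37 and 3.99 TPM at 3 h, 12.0, 12.9 and 14.6 TPM at 6 h, 11.3 and 7.09 TPM at 12 h and 5.85, 8.05 and 4.51 TPM at 24 h. Neighbouring groups overlapped throughout the order of mean levels, although the 3 h libraries lay wholly below those of 6 h. Against control 0 h the log2 fold change at 3 h was -0.91 ± 0.35 and missed the threshold (adjusted p = 0.0641), while 7 of 18 alternatives called it, among them DESeq2 (adjusted p = 0.03), both limma-trend fits on TPM and the fit without LatB 3 h replicate 2 (adjusted p = 0.00471). Between LatB 3 h and 6 h PPARG rose by 1.14 ± 0.35 (adjusted p = 0.0314), and between 6 h and 24 h it fell by 1.15 (SE 0.35, adjusted p = 0.0186). The rise was no longer called without LatB 3 h replicate 1 or 3 or without any LatB 6 h library (adjusted p up to 0.121), nor the fall without LatB 6 h replicate 3 or LatB 24 h replicate 1 or 3 (adjusted p up to 0.0756). Of 34 PPARG transcripts in GENCODE, 20 were in the tables, and transcript PPARG-217 held 81.3% of the gene's estimated reads.

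PPARA (chr22:46150521-46243755) gave different pictures as a level and as a count. In TPM it was 11.8, 13.1 and 15.4 in control 0 h, 14.3 and 13.7 in control 24 h, 11.9, 12.7 and 14.5 at LatB 3 h, 9.48, 10.4 and 10.8 at 6 h, 9.73 and 12.6 at 12 h and 13.6, 12.5 and 11.6 at 24 h. By this scale the groups overlapped with their neighbours in rank and the 6 h libraries lay below both controls. Over all libraries 42.3% of that TPM came from PPARA-205, a transcript of 368 bases given 10 to 26 reads per library. PPARA-202 held 18.6% of the TPM and 80.8% of the estimated reads. Which scale is nearer the level of the gene was not tested. By estimated reads, however, the gene ran from 106 to 1040 per library: PPARA-202, its long transcript, was given between 0 and 908 reads, while all other PPARA transcripts together were given 75 to 136. LatB 6 h replicate 3 had 0 of 106 reads on PPARA-202, which allows a share of up to 2.84% by counting error alone, and LatB 3 h replicate 2 had 90.0%. By annotation PPARA shares 2045 bases with a long noncoding RNA gene on the same strand.

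**Figure D2:**
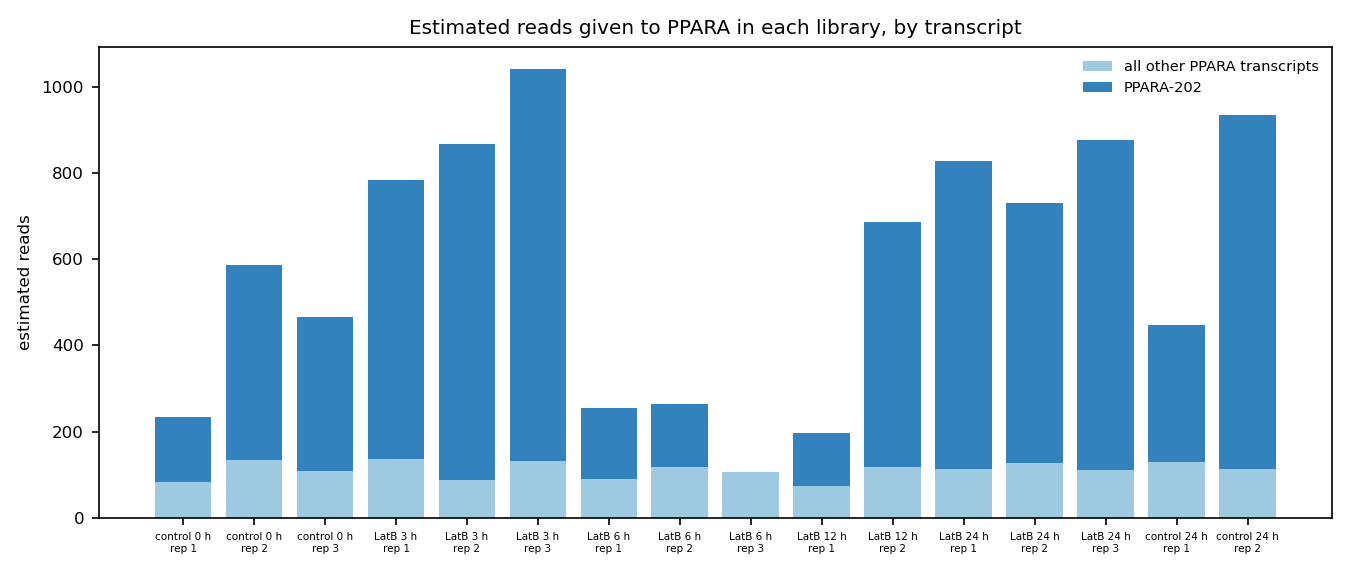
Estimated reads given to PPARA in each of the 16 libraries, split into the transcript PPARA-202 (dark) and all other PPARA transcripts (light). The light part stays between 75 and 136 reads while the dark part runs from 0 to 908.

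The edgeR counts gave PPARA a log2 fold change of 0.91 ± 0.38 at 3 h (adjusted p = 0.0899) and -1.01 ± 0.41 at 6 h (adjusted p = 0.061), neither called. Of 18 alternatives 9 called the lower value at 6 h (lowest adjusted p = 0.0163), among them limma-trend on log2(TPM + 1) and on log2(TPM + 0.1) and control 24 h as the reference, and 2 called the higher value at 3 h (lowest adjusted p = 0.0255), where both limma-trend fits gave the opposite sign. Between drug times they gave -1.92 ± 0.40 from LatB 3 h to 6 h (adjusted p = 0.00451) and 1.72 ± 0.40 from 6 h to 24 h (adjusted p = 0.00454). With an offset for the mean length of the transcripts in use, these shrank to -0.34 ± 0.11 (adjusted p = 0.0656) and 0.22 ± 0.11 (adjusted p = 0.182), and neither was called. That mean length is weighted by TPM, of which PPARA-205 held 42.3%. It ran from 530 bases in LatB 6 h replicate 3 to 3475 bases in LatB 24 h replicate 3.

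CPT1A, the gatekeeper of the carnitine shuttle that moves long-chain fatty acids into mitochondria (chr11:68754620-68844410), changed late. It lay at 2.28, 2.51 and 2.62 TPM in control 0 h and at 2.68 and 2.40 TPM in control 24 h. The treated values were 2.19, 2.18 and 1.95 TPM at 3 h, 2.86, 2.05 and 2.11 TPM at 6 h, 2.63 and 2.61 TPM at 12 h and 3.78, 3.11 and 3.94 TPM at 24 h. The 24 h libraries were above all others. CPT1A rose by 0.58 ± 0.13 against control 24 h (adjusted p = 0.00269) and by 0.54 ± 0.11 from LatB 6 h to 24 h (adjusted p = 0.00212), while its differences at 3, 6 and 12 h lay between -0.15 and 0.09. It was the only one of the 8 still called at 24 h when either control 24 h library was left out, and its adjusted p was 0.0542 by limma-trend on log2(TPM + 0.1).

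ACADVL, the very long-chain acyl-CoA dehydrogenase that takes the first step of the oxidation spiral (chr17:7217125-7225266), was the most abundant of the 8 in every library by TPM summed over transcripts. Controls held 440, 505 and 499 TPM at 0 h and 459 and 381 TPM at 24 h. Treated libraries held 568, 454 and 632 TPM at 3 h, 453, 471 and 454 TPM at 6 h, 406 and 265 TPM at 12 h and 325, 403 and 341 TPM at 24 h. The groups overlapped with each neighbour in the order of mean levels, and none of the 4 comparisons with control was called. The nearest was 12 h, at -0.40 ± 0.16 (adjusted p = 0.0669), where the 2 libraries lay below all 3 of control 0 h. ACADVL shares 2717 bases with DLG4 on the opposite strand, so its level is uncertain to that extent. Its canonical coding transcript held 20.7% of the gene's TPM over all libraries, and a transcript annotated as retaining an intron held 23.4%. By the mean TPM of the canonical transcript alone, ACADVL lay below PLIN2 at LatB 3 h (104 against 112) and 6 h (91 against 92). In both controls and at LatB 12 h and 24 h it lay above PLIN2. The rank by summed TPM thus depends on the transcripts counted.

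**Figure D3:**
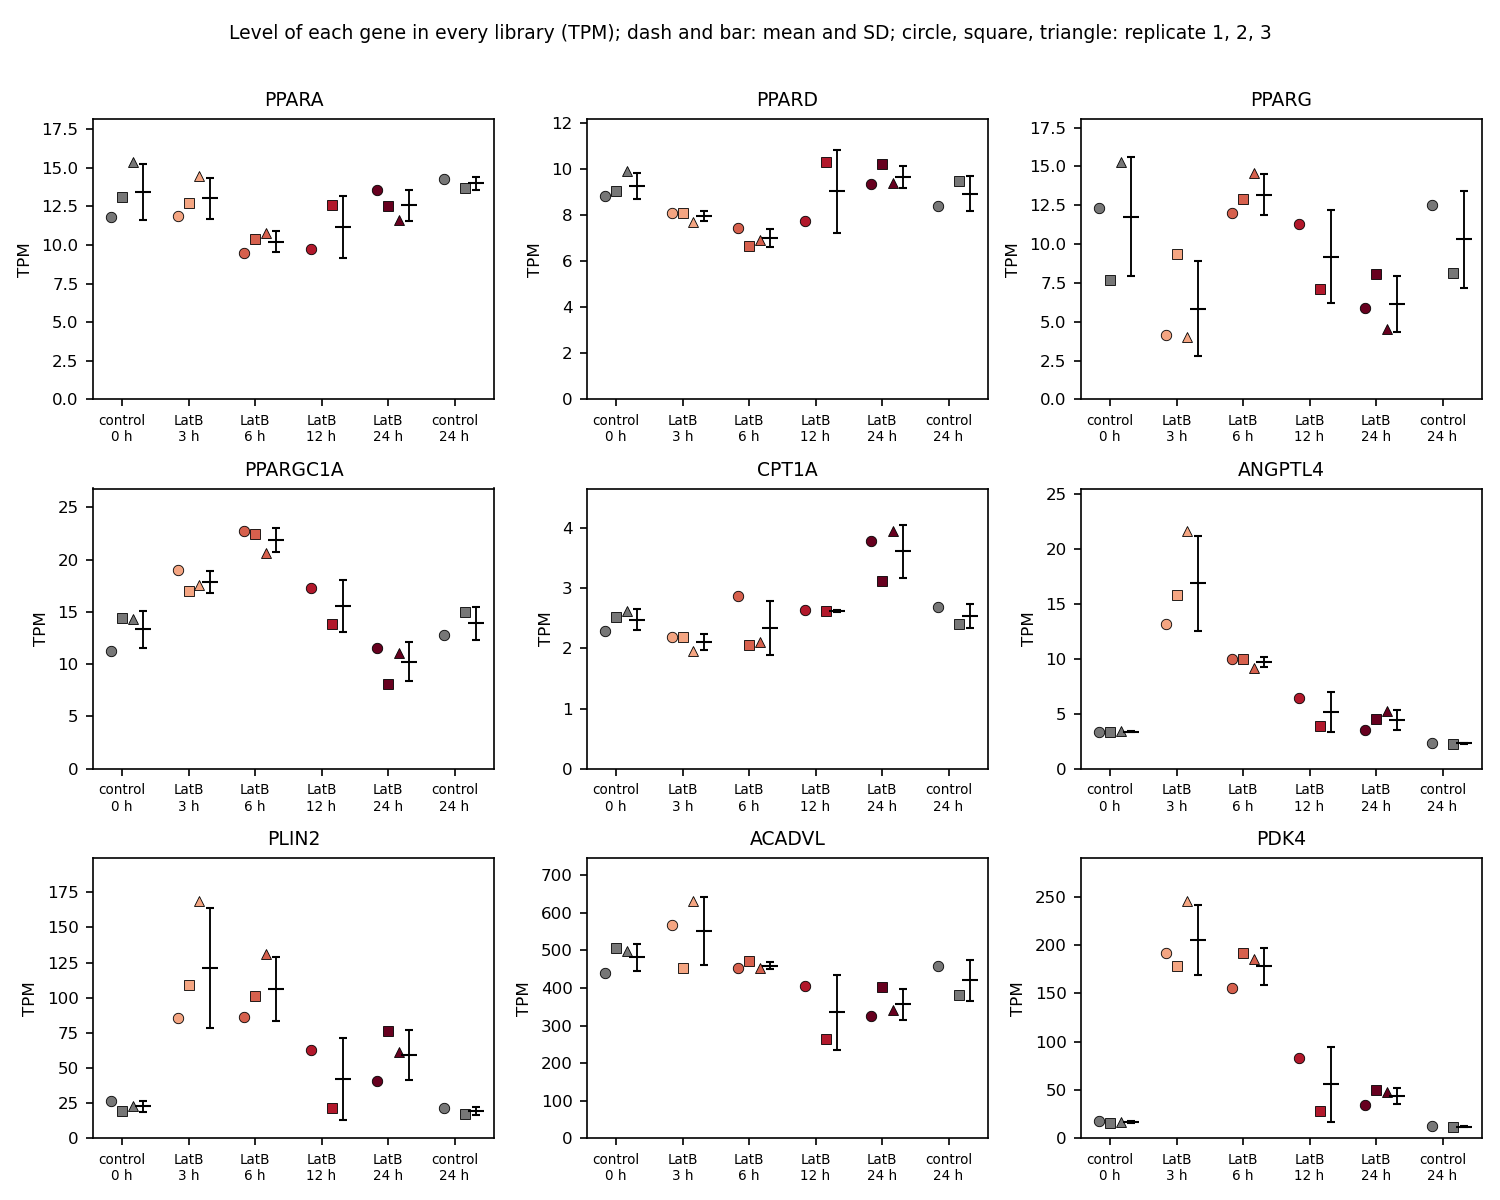
TPM of the 8 genes and PDK4 in each library (1 symbol per replicate number) by group, with the mean (dash) and SD (bar); each axis starts at 0. ANGPTL4, PLIN2 and PDK4 peak at 3 h and 6 h, PPARGC1A at 6 h and CPT1A at 24 h.

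Counted over the 8 genes, all of which passed the filter on low counts, 3 were called at 3 h, all higher (PPARGC1A, ANGPTL4, PLIN2), where 31.6% of all 16705 genes tested were called and 16.8% were called higher. At 6 h 4 were called, the same 3 higher and PPARD lower, against 43.3% of all genes. At 24 h 4 were called, CPT1A, ANGPTL4 and PLIN2 higher and PPARGC1A lower, against 40.8%. With so many genes called at each time, the shares of the 8 genes called in either direction were near those of all genes. A share of all genes called higher was taken only at 3 h. The median log2 fold change of the 8 was 0.32, 0.14 and 0.22 at 3, 6 and 24 h, beside 0.00, -0.01 and 0.01 for all genes. The 3, 6 and 12 h comparisons share the control 0 h libraries.

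At 12 h edgeR called 0 of the 8, against 35.8% of all genes, with 2 at an unadjusted p under 0.05 (ANGPTL4 and ACADVL). DESeq2 called 1, ACADVL, as did limma-trend on log2 TPM. That count rests on the pair of unlike libraries. Without replicate 2, whose hepatocyte and mesenchyme markers were high, 3 were called, ANGPTL4 at 1.0 ± 0.26 (adjusted p = 0.0112), PLIN2 at 1.45 ± 0.37 (adjusted p = 0.0103) and PPARGC1A at 0.51 ± 0.14 (adjusted p = 0.0138). Without replicate 1, PLIN2 was at -0.19 ± 0.42 (adjusted p = 0.766) and the only call was ACADVL, lower at -0.78 ± 0.14 (adjusted p = 0.000772). The part of those marker levels in the difference between the libraries was not tested.

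The controls differed little from each other: edgeR, DESeq2 and limma-trend each called 0 of the 8 genes between control 24 h and control 0 h, 0 had an unadjusted p under 0.05 in edgeR, and 0.251% of all genes were called. ANGPTL4 was the nearest, at -0.60 ± 0.28 (adjusted p = 0.593), with both 24 h libraries below all 3 of 0 h.

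Between drug times, 4 of the 8 were called from LatB 3 h to 6 h (PPARA, PPARD and ANGPTL4 lower, PPARG higher), against 22.2% of all genes, and 6 from 6 h to 24 h, against 37.9%. The drop of ANGPTL4 was -0.83 ± 0.22 over the first interval (adjusted p = 0.0152, and up to 0.0803 without LatB 3 h replicate 3 or LatB 6 h replicate 3) and -1.31 ± 0.23 over the second (adjusted p = 0.000545). Over that second interval PPARA, PPARD and CPT1A were higher and PPARG, PPARGC1A and ANGPTL4 lower. The count from 3 h to 6 h was sensitive: PPARD stood at an adjusted p of 0.0498, and only 1 to 3 of the 8 were called when any library of the 2 groups was left out.

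The difference between the effect at 24 h (against control 24 h) and the effect at 3 h (against control 0 h) was called for 3 of the 8, against 27.9% of all genes. No vehicle control of 3 h enters it. For ANGPTL4 it was -1.53 ± 0.35 (adjusted p = 0.006), a smaller rise at 24 h, for PPARGC1A -0.87 ± 0.20 (adjusted p = 0.00646), a change of direction, and for CPT1A 0.73 ± 0.17 (adjusted p = 0.00613, and 0.0558 by limma-trend on log2(TPM + 0.1)). The effect on PLIN2 differed by -0.95 ± 0.56 and was not called (adjusted p = 0.228).

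**Figure D4:**
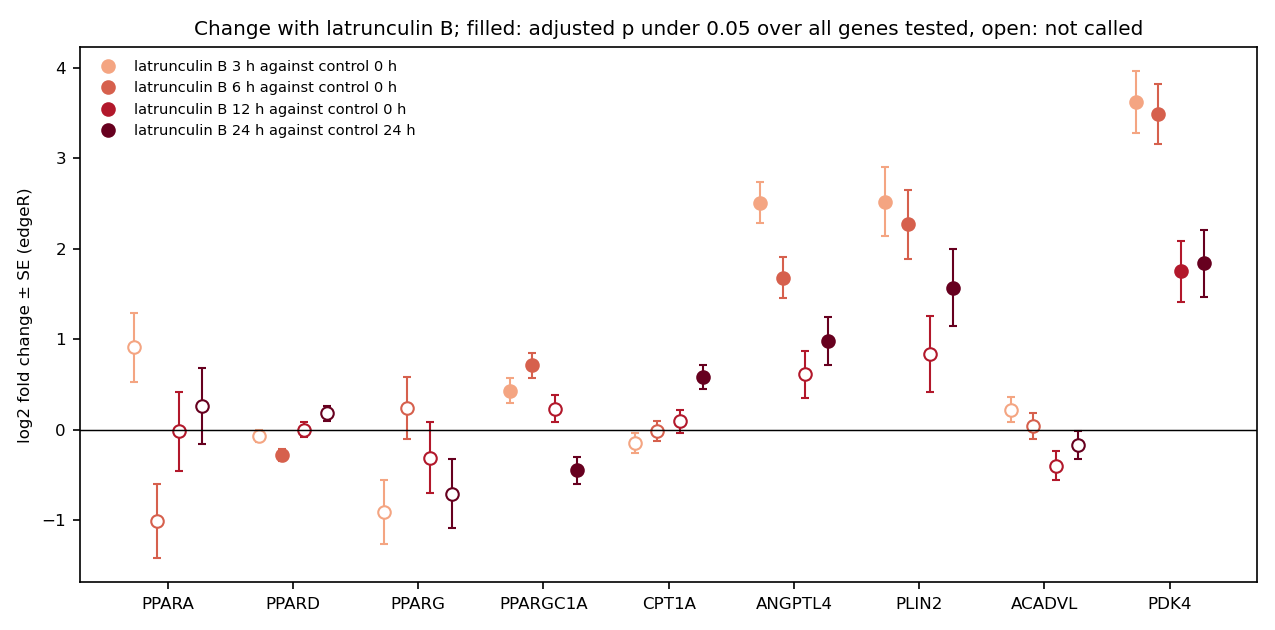
Log2 fold change ± SE (edgeR) of the 8 genes and PDK4 in the 4 comparisons of latrunculin B with control, with called values filled and others open. ANGPTL4 and PLIN2 lie at 2.51 and 2.52 at 3 h and at 0.61 and 0.84 at 12 h, PPARGC1A crosses from 0.71 at 6 h to -0.45 at 24 h, and of the 12 values of PPARA, PPARD and PPARG only PPARD at 6 h is filled.

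The other genes of the pathway were taken from 6 lists that hold 123 genes, 25 of them in more than 1 list and none of them among the 8. Of 18 partners and coregulators of PPARs tested, 10 were higher and 1 lower at 3 h (median 0.28, 61.1% called against 31.6% of all genes). Among them NRIP1, a corepressor of nuclear receptors, rose by 0.75 ± 0.06 at 3 h (adjusted p = 1.05e-06) and 0.95 ± 0.06 at 6 h (adjusted p = 1.25e-07). SIRT1, a deacetylase that acts on PPARGC1A, rose by 0.66 ± 0.06 at 3 h (adjusted p = 2.8e-06), and RXRA, a PPAR partner, fell by 0.19 at 3 h (adjusted p = 0.0357). At 6 h 8 were higher and 3 lower (61.1% called against 43.3%), at 12 h 6 and 1 (38.9% against 35.8%), and at 24 h 6 and 3 (50% against 40.8%). Without the 12 h replicate 2 the 12 h count was 4 higher and 3 lower. At 24 h ESRRG, an oestrogen-related receptor that works with PPARGC1A, was lower (-1.44 ± 0.39, adjusted p = 0.00942).

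The other PPAR target genes were called in both directions. Of 27 tested, 3 were higher and 7 lower at 3 h, 3 and 9 at 6 h, 6 and 1 at 12 h and 6 and 2 at 24 h, with medians between -0.08 and 0.03. The shares called were 37%, 44.4%, 25.9% and 29.6%, against 31.6%, 43.3%, 35.8% and 40.8% of all genes. Without the 12 h replicate 2, 4 of 30 were higher and 3 lower at 12 h. PLIN4, another droplet coat, rose by 1.10 ± 0.23 at 3 h (adjusted p = 0.00282). VLDLR, a lipoprotein receptor, fell by 0.90 at 3 h (adjusted p = 0.0125) and by 1.0 at 24 h (adjusted p = 0.00943). UCP2, a mitochondrial carrier, was lower at 6 h (-0.71 ± 0.20, adjusted p = 0.0123) and higher at 12 h (1.07 ± 0.22, adjusted p = 0.00189). Its 2 libraries at 12 h were far apart, with a mean of 70.1 CPM and an SD of 34, beside 33.6 CPM and 3.28 in control 0 h.

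Of 29 mitochondrial beta-oxidation genes tested, 2 were higher and 6 lower at 3 h, 3 and 11 at 6 h, 5 and 6 at 12 h and 9 and 6 at 24 h. The shares called, 27.6%, 48.3%, 37.9% and 51.7%, stood beside 31.6%, 43.3%, 35.8% and 40.8% of all genes. Without the 12 h replicate 2, 4 were higher and 5 lower at 12 h. CPT2, the carnitine shuttle's inner-membrane enzyme, fell by 0.67 at 3 h (SE 0.07, adjusted p = 1.13e-05). SLC22A5, the carnitine importer, fell by 0.72 at 6 h (SE 0.09, adjusted p = 2.48e-05) and by 0.65 at 24 h (adjusted p = 0.000144). ACSL1, which activates fatty acids to acyl-CoA, rose by 0.47 ± 0.14 at 6 h (adjusted p = 0.0159), and HSD17B10, a dehydrogenase of the spiral, by 0.53 ± 0.06 at 24 h (adjusted p = 2.93e-05).

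Peroxisomal beta-oxidation genes were called in both directions. EHHADH, a bifunctional enzyme of the pathway, fell by 1.09 at 3 h (SE 0.08, adjusted p = 1.02e-06) and by 0.66 at 6 h (adjusted p = 3.81e-05). AMACR, a racemase of branched fatty acids, rose by 0.71 ± 0.07 at 6 h, 1.51 ± 0.08 at 12 h and 1.36 ± 0.08 at 24 h (adjusted p between 4.17e-08 and 5.82e-06). Of 19 tested, 3 were higher and 10 lower at 6 h (median -0.23, 68.4% called against 43.3% of all genes), 2 and 5 at 3 h (36.8% against 31.6%), 4 and 5 at 12 h (47.4% against 35.8%) and 3 and 4 at 24 h (36.8% against 40.8%). Without the 12 h replicate 2, 2 were higher and 4 lower at 12 h.

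Of 21 lipid droplet and lipolysis genes tested, 4 were higher and 0 lower at 3 h, 6 and 1 at 6 h, 10 and 0 at 12 h and 4 and 1 at 24 h, with medians of 0.22, 0.16, 0.32 and 0.15. The shares called were 19%, 33.3%, 47.6% and 23.8%, below those of all genes (31.6%, 43.3% and 40.8%) at 3, 6 and 24 h and above that at 12 h (35.8%). Without the 12 h replicate 2, 8 of 22 were higher and 2 lower at 12 h. SOAT1, which makes cholesteryl esters, rose by 0.50 ± 0.07 at 3 h (adjusted p = 0.000132) and 0.86 ± 0.07 at 6 h (adjusted p = 1.03e-06). DGAT1, which makes triglyceride, rose by 0.48 ± 0.10 at 6 h (adjusted p = 0.0018) and 0.47 ± 0.11 at 24 h (adjusted p = 0.0051). PLIN3, a further droplet coat, fell by 0.25 at 6 h (adjusted p = 0.0088).

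Fatty acid uptake and binding genes, 13 tested, gave 1 higher and 4 lower at 3 h, 1 and 3 at 6 h, 4 and 2 at 12 h and 4 and 1 at 24 h. The shares called were 38.5%, 30.8%, 46.2% and 38.5%, against 31.6%, 43.3%, 35.8% and 40.8% of all genes, and without the 12 h replicate 2 the 12 h count was 2 higher and 2 lower. SLC27A2, a very long-chain acyl-CoA synthetase and transporter, rose at each time, by 0.74 ± 0.18 at 3 h (adjusted p = 0.00631) up to 1.71 ± 0.19 at 12 h (adjusted p = 2.15e-05). Its 2 libraries at 12 h had a mean of 12.2 CPM and an SD of 3.88, beside 3.75 CPM and 0.566 in control 0 h.

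**Figure D5:**
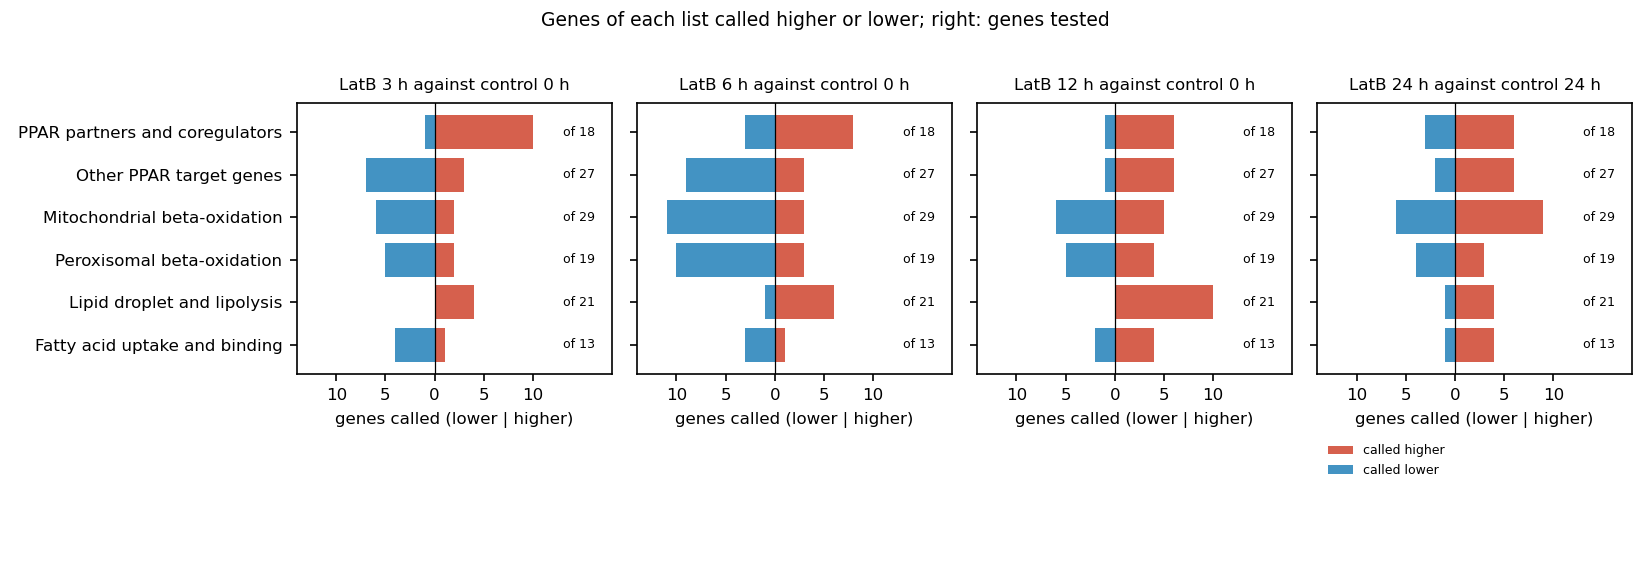
Number of genes of each list called higher (right of 0) or lower (left of 0) in the 4 comparisons with control, with the number tested at the right of each row. Partners and coregulators reach 10 of 18 higher at 3 h, where 16.8% of all genes were called higher. Peroxisomal genes reach 10 of 19 lower at 6 h and lipid droplet genes 10 of 21 higher at 12 h. At those times no share of all genes by direction was taken. Without the 12 h replicate 2, 8 of 22 lipid droplet genes were higher and 2 lower.

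Over the 16 libraries, the genes most like each of the 8 were sought among 10521 genes by Pearson's correlation of log2 CPM. It is a description only: treated and control libraries were pooled, so differences between the groups enter every correlation. ANGPTL4 was nearest to ISCA1, ATP6V1B2 and RREB1 (0.97 each), with PDK4 at rank 11 (0.96). PLIN2 was nearest to PROSER1, SLC18A1 (0.98 each) and TGIF1 (0.97), with PDK4 at rank 10 (0.96). PPARGC1A was nearest to GNAS (0.97), SNAP25 and RFX1 (0.95 each), with PDK4 at rank 994 (0.67), and CPT1A to SLC27A4 (0.92), ZC3H13 and MIX23 (0.91 each), with PDK4 at rank 6830 (-0.21). PPARD (-0.53), PPARG (-0.10) and PPARA (-0.19) had negative correlations with PDK4 and ACADVL a positive one (0.50). Their nearest genes were STK33 for PPARD (0.93), MARCKS for PPARG (0.84), TTLL5 for PPARA (0.87) and ENO3 for ACADVL (0.96).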

How the data were processed

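RNA-seq of 16 libraries was used. Transcript tables in the format of Salmon (version 1.3.0 in the submitters' processing notes) were deposited by the authors, with estimated counts and TPM for 177456 transcripts; the study's methods describe another route, by alignment and gene counts, so settings upstream are uncertain. A deposited table of the authors' own fold changes, and its 16 columns of per-sample values, were not used. Transcripts were joined to genes through GENCODE 44 (GRCh38) without versions (165533 matched, 2.92% to 3.17% of reads left out), summed and rounded. Counts were tested in edgeR 4.0.16 (R 4.3.3; quasi-likelihood, two-sided, TMM factors 0.947 to 1.05, filterByExpr) with the 6 groups in a single fit and Benjamini-Hochberg adjustment over 16705 genes, and called at an adjusted p under 0.05. The SE is the log2 fold change divided by the root of F. CPM used TMM-scaled totals. DESeq2 1.42.0 and limma 3.58.1 served as alternatives. List genes named are the up to 2 largest called rises and falls, among genes at a mean log2 CPM of at least 1 and with groups that do not overlap; some of them are not reported here. Like genes are the 3 nearest at a mean of at least 3. The scripts were tested on simulated data. Members, lists, motifs and tests were chosen with earlier results of these data known. Groups come from the labels, which do not say that replicates were separate cultures, so p-values measure the spread between these libraries.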

Additional observations from a re-analysis of the deposited data

Results flagged for a closer look

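For 3 of the 8 genes the effect of latrunculin B differed between 24 h and 3 h by the test of that difference in edgeR. PPARGC1A was higher than control in 3 of 3 libraries at 3 h and lower in 3 of 3 at 24 h, a difference of -0.87 ± 0.20 on the log2 scale (adjusted p = 0.00646). CPT1A gave 0.73 ± 0.17 (adjusted p = 0.00613), with all 3 libraries above control at 24 h, and was not called by limma-trend on log2(TPM + 0.1) (adjusted p = 0.0558). ANGPTL4, above its control in every library at both times, gave -1.53 ± 0.35 (adjusted p = 0.006).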

How the results depend on the processing

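Calls of ANGPTL4 and PLIN2 at 3 h and 6 h, of PPARGC1A and PPARD at 6 h, and of PPARD, PPARGC1A, CPT1A and ANGPTL4 between 6 h and 24 h held under every alternative run. Of 1128 values of single genes under alternatives, 988 kept direction and side of the threshold, 49 lost the call, 45 gained one and 46 changed sign; the cause was not tested. Genes called from LatB 3 h to 6 h (4) numbered 2 with the replicate block, with limma-trend on log2(TPM + 1) or log2(TPM + 0.1) and with the length offset, and 1 to 3 leaving out a library. Replicate numbers gave no sign of pairing: correlations of deviations were -0.24 to 0.12 for the same number and -0.14 to 0.24 for different numbers. With groups of 2 or 3 libraries this cannot show that they were unpaired. At 12 h (0 called) 1 was called with control 24 h as reference, with DESeq2 and with limma-trend at either pseudocount, and 0 to 3 leaving out a library. At 24 h (4) leaving out a library gave 1 to 5, with 1 without either control 24 h library. At 3 h (3) 5 were called with the 12 h group out of the fit, an alternative, like the length offset, chosen after seeing the data.

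All sign changes concerned values not called. At 12 h PPARD (-0.00) was at 0.00 with RLE factors or DESeq2, 0.02 unscaled, 0.01 with the replicate block, 0.04 against control 24 h and -0.11 to 0.09 leaving out a library, and PPARA (-0.02) at 0.01 unscaled and -0.93 to 0.51 leaving out a library. PPARA at 3 h (0.91) was at -0.03 and -0.04 by limma-trend with pseudocounts 1 and 0.1, and at 24 h (0.26) at -0.15 and -0.16, at -0.14 with the length offset and at -0.14 to 0.81 leaving out a library. ACADVL at 6 h (0.04) was at -0.05 unscaled and -0.07 by limma-trend at both. CPT1A at 6 h (-0.02) was at 0.04 against control 24 h and 0.02 with the length offset, and between the controls (-0.06) at 0.03 and 0.04 by limma-trend and 0.03 with the length offset. Leaving out a library gave ranges across 0 for CPT1A at 6 h (-0.16 to 0.02), at 12 h (-0.01 to 0.18) and between the controls (-0.16 to 0.03), for PPARG at 12 h (-0.75 to 0.04), between the controls (-0.49 to 0.04) and for the effect at 24 h minus that at 3 h (-0.05 to 0.74), for PPARGC1A at 12 h (-0.10 to 0.51) and between the controls (-0.04 to 0.11), for PLIN2 at 12 h (-0.19 to 1.45) and from 3 h to 6 h (-0.45 to 0.07), and between the controls for PPARD (-0.12 to 0.03) and PPARA (-0.11 to 0.84). Without scaling, the median of all genes moved by over 0.1 only from LatB 6 h to 24 h, to 0.14.

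Low counts limit ANGPTL4 and CPT1A in the controls, and pairs of libraries limit the 12 h and control 24 h groups.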
